A study of Rattus norvegicus with 6 samples.

Results

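The constitutive subunits of the proteasome were examined in cultured rat oligodendrocyte precursor cells with and without fibrils of alpha-synuclein. Subunits were taken by symbol: every Psma, Psmb, Psmc and Psmd gene of the deposited table, leaving out Psmb8, Psmb9, Psmb10 and Psmb11, whose products replace catalytic subunits in immune cells or thymus. This gave 35 of 32662 genes: 8 alpha subunits (Psma) and 7 beta subunits (Psmb) of the core particle, and 6 ATPases (Psmc) and 14 non-ATPase genes (Psmd) of the regulatory particle. Of these, 34 were above 0 FPKM (fragments per kilobase of gene, scaled to the fragments mapped in that library) in all 6 libraries and were tested. The remaining gene, Psma8, which encodes a testis-specific alpha subunit, was listed at 0 in all 6.

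The cells came from the cerebral cortex of Sprague-Dawley rats aged 1 to 2 days. Mixed glia were grown with 20% serum, and the cells that did not adhere were then kept for 4 to 5 days in serum-free medium with PDGF and FGF (10 ng/ml each) and 2% B27. The control group (3 libraries) received no fibrils, and the fibril group (3 libraries) was exposed for 72 hours to fibrils preassembled from human alpha-synuclein. Both groups thus shared the strain, the growth factors and the culture steps. Whether replicate libraries represent independent cultures or litters is not in the labels, so a p-value here reflects the variation among 6 libraries, which may be technical.

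The proteasome is the main ATP-dependent protease of the cytosol and nucleus, and degrades proteins tagged with ubiquitin. Its core is a barrel of alpha and beta rings; alpha subunits form the gate, and the beta subunits Psmb5, Psmb6 and Psmb7 carry the proteolytic sites. A cap of ATPases unfolds the substrate, and non-ATPase subunits bind and remove ubiquitin. Subunit genes are known to be transcribed in a coordinated way, in part through the transcription factor Nfe2l1, which binds antioxidant response elements when proteolysis falls short. Clearance of alpha-synuclein in the brain involves both the proteasome and the lysosome.

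Replicate numbers differed strongly in library composition. Mitochondrially encoded genes held 80.3% (control) and 75.6% (fibril) of all FPKM in replicate 1, 34.6% and 40.1% in replicate 2, and 21.2% and 12.0% in replicate 3. Between 11518 and 14219 genes were above 0 per library, with the fewest in replicate 1. Precursor markers were present, with 7 of 7 reaching 1 FPKM and a summed level of 1464 to 2392 FPKM without fibrils and 1180 to 1382 FPKM with fibrils. Markers of differentiating oligodendrocytes (7 of 7) summed to 252 to 687 FPKM without fibrils and 1127 to 2735 FPKM with fibrils, and microglial markers (5 of 7, Cx3cr1 below 1 FPKM throughout) to 1.17 to 29.4 and 9.49 to 46.5 FPKM. Astrocyte markers (6 of 7) summed to 142 to 157 FPKM without fibrils and 91.9 to 232 FPKM with fibrils, with Aldoc the largest part. The sum hides opposite directions, with 2 of 6 tested markers higher with fibrils. Gfap was higher without overlap (means 0.58 and 11.6 FPKM, 4.24% of all genes). Slc1a3 (49.5 and 17.6 FPKM) and Gja1 (9.23 and 1.87 FPKM) were lower without overlap (5.3% of all genes). Neuron markers (7 of 7) summed to 271 to 601 FPKM without fibrils and 110 to 397 FPKM with fibrils. Of the endothelial and mural markers, 0 of 5 reached 1 FPKM. The part of these shifts in the subunit differences was not tested. In bulk RNA, fewer cells of a type and less RNA per cell cannot be told apart.

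Proteasome subunit transcripts were abundant, and most were higher with fibrils, by an amount that differed widely between replicate numbers. Mean levels over the 6 libraries ran from 78.1 to 308 FPKM for the alpha, 110.4 to 279 FPKM for the beta, 43.4 to 97.2 FPKM for the ATPase and 11.3 to 91.7 FPKM for the non-ATPase genes. The log2 difference (fibril minus control, on log2(FPKM + 1)) was above 0 for 32 of 34 subunits, where 47.0% of all 10766 tested genes were above 0. Its median over the 34 was 0.53, against -0.04 over all tested genes. No subunit passed the test: by limma, 0 of 34 had an adjusted p under 0.05 and 0 had an unadjusted p under 0.05 in either direction. Over all genes 0.0% were called after adjustment, and 2.21% were higher and 1.81% lower at the unadjusted threshold. With the replicate number as a block, again 0 of 34 passed at either threshold, where 0.111% of all genes were called higher after adjustment, and 4.87% were higher and 4.97% lower without it.

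**Figure D1:**
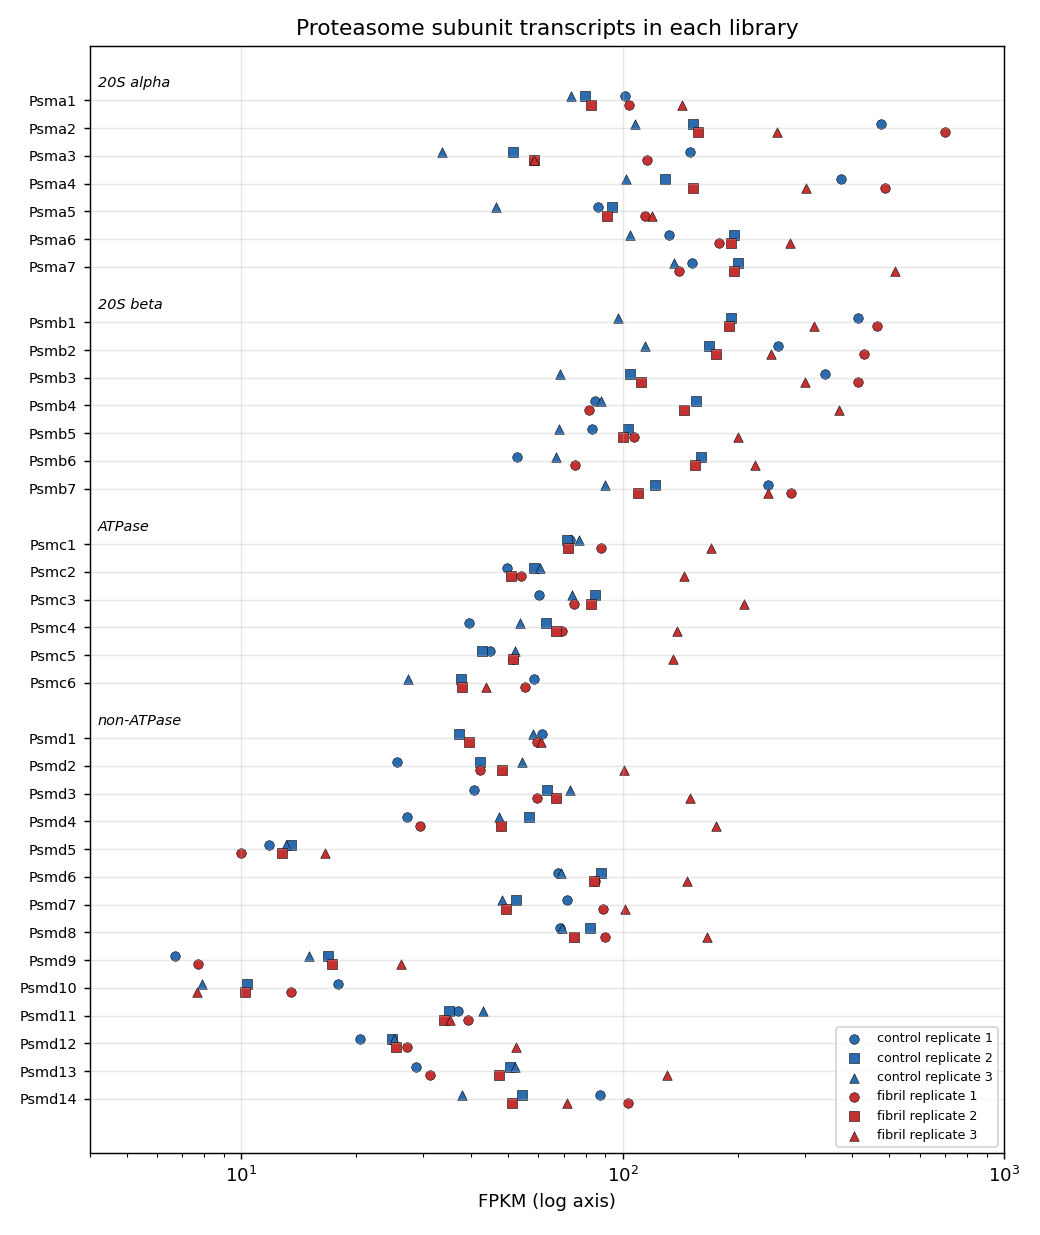
FPKM (log axis) of the 34 detected subunits in each of the 6 libraries, grouped by subunit class; blue points are controls, red points fibril libraries, and the marker shape gives the replicate number. Fibril replicate 3 lies farthest right for 22 of the 34 genes, and the control and fibril points of replicate 2 nearly coincide.

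The size of the difference varied with the replicate number. The labels state no pairing, and correlations over all tested genes after removing group means do not tell numbers 2 and 3 apart. By that measure, control replicate 3 correlated with fibril replicate 2 at 0.5, and control replicate 2 with fibril replicate 3 at 0.433. Same-numbered libraries correlated at 0.364 for number 2 and 0.216 for number 3. Over the 34 subunits without that step, same-numbered libraries correlated at 0.994 and 0.943, and libraries across these numbers at 0.935 and 0.926. As no pairing is stated, differences within these numbers compare libraries that share a number, not known pairs. Within replicate 1 the median log2 difference of the 34 subunits was 0.26, within replicate 2 it was -0.02 and within replicate 3 it was 1.23. In replicate 2 only 15 of 34 subunits were higher with fibrils (45.5% of all genes), and 0 differed by 2-fold in either direction (2.69% of all genes were that much higher and 1.75% lower). In replicate 1, 27 of 34 were higher (50.2% of all genes), again with 0 at 2-fold (5.61% and 5.45%). In replicate 3, 32 of 34 were higher (48.6% of all genes). In that replicate 24 were at least 2-fold higher, where 17.6% of all tested genes, and 21.2% of the 7487 genes with a mean of at least 5 FPKM, were that much higher; 0 subunits were 2-fold lower, against 21.8% of all genes. In all, 12 of 34 subunits had positive differences under each of the 3 replicate numbers, where 16.9% of all genes did. With 1 library per group and replicate number, whether the replicates differ in their response could not be tested.

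On the deposited scale, both libraries of replicate 3 contributed to that gap. Control replicate 3 was the lowest of all 6 libraries for 15 of 34 subunits (14.7% of all genes). These were 7 of 7 alpha and 5 of 7 beta subunits, but 1 of 6 ATPases and 2 of 14 non-ATPase genes. Fibril replicate 3 was the highest of all 6 for 22 of 34 subunits (28.5% of all genes): 4 of 7 alpha, 3 of 7 beta, 5 of 6 ATPase and 10 of 14 non-ATPase genes. Beside replicate 2, control replicate 3 was lower for all 14 core subunits, at 0.417 to 0.916 times the level, and for 11 of the 20 regulatory particle genes (44.5% of all genes). Fibril replicate 3 was higher than fibril replicate 2 for 13 of the 14 core subunits and 19 of the 20 others (52.5% of all genes). All these counts depend on the scale of each library and were not computed under other scalings. FPKM outside mitochondrial genes totalled 284253 in control and 493062 in fibril replicate 3, against 327106 and 336821 in replicate 2.

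**Figure D2:**
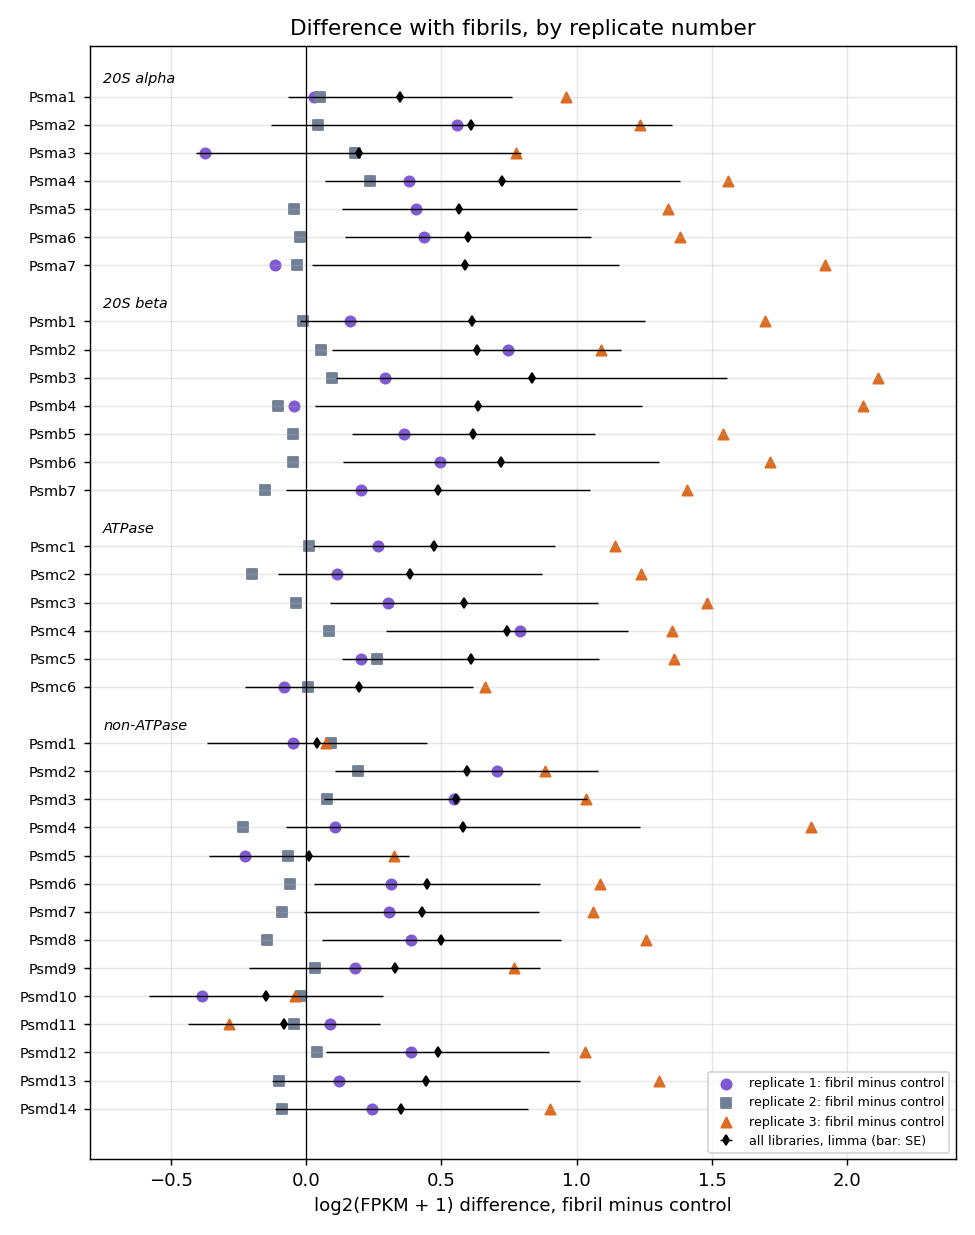
Difference in log2(FPKM + 1), fibril minus control, for each subunit within replicate 1 (circles), 2 (squares) and 3 (triangles), and from limma over all 6 libraries (black diamonds, bars are the SE). Triangles lie between -0.29 and 2.11, and squares between -0.23 and 0.26.

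The alpha subunits form the outer rings and the gate of the core. All 7 detected alpha genes had positive log2 differences, from 0.20 to 0.73 with a median of 0.59, and 3 of 7 were higher in all 3 replicate numbers. Psma2, the alpha gene with the highest mean level, had 476, 153 and 107 FPKM in control replicates 1, 2 and 3 and 701, 158 and 254 FPKM with fibrils (log2 difference 0.61, SE 0.74). Both replicate 1 libraries were far above the other 4, and the groups overlapped. Psma4 had the widest alpha difference, 0.73 (SE 0.65), with 374, 129 and 102 FPKM without fibrils and 487, 152 and 302 FPKM with fibrils, higher with fibrils in 3 of 3 replicate numbers. Psma3 had both the lowest mean and the smallest difference of this class (0.20, SE 0.60): 150, 51.4 and 33.7 FPKM against 116, 58.4 and 58.4 FPKM. Here the fibril library was lower in replicate 1 and higher in replicates 2 and 3.

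The beta subunits form the inner rings, and 3 of them carry the active sites. All 7 had positive log2 differences, from 0.49 to 0.83 with a median of 0.63. Psmb5, which encodes the chymotrypsin-like site (chromosome 15, 33259042 to 33263659 in the deposited table's coordinates, whose build is not given in the sources used here), had 83.1, 103 and 68.2 FPKM without fibrils and 107, 100.03 and 200.4 FPKM with fibrils (log2 difference 0.62, SE 0.45, limma adjusted p = 0.96). Psmb6, the caspase-like site (chromosome 10, 57131385 to 57133637), had 52.9, 160 and 66.9 FPKM against 75.1, 155 and 222 FPKM (0.72, SE 0.58). Psmb7, the trypsin-like site (chromosome 3, 22811926 to 22952063), had 240.3, 121 and 89.8 FPKM against 277, 109 and 239.7 FPKM (0.49, SE 0.56). All 3 catalytic genes were higher with fibrils in replicates 1 and 3 and slightly lower in replicate 2, and for none were the groups apart.

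The other beta subunits are structural. Psmb1, the most abundant beta gene by mean, had 414, 192 and 97.1 FPKM without fibrils and 463, 190 and 317 FPKM with fibrils (0.61, SE 0.64). Psmb3 had the widest difference of any subunit, 0.83 (SE 0.72, limma adjusted p = 0.96), with 339, 104 and 68.6 FPKM against 415, 112 and 300.1 FPKM. It was higher with fibrils in 3 of 3 replicate numbers, yet fibril replicate 2 lay far below control replicate 1. In replicate 3 all 7 beta genes were at least 2-fold higher with fibrils (17.6% of all genes). The counts were 5 of 7 alpha genes, 5 of 6 ATPases and 7 of 14 non-ATPase genes. Scaled to equal totals without mitochondrial genes, they were 2 of 7 beta and 1 of 7 alpha genes (5.55% of all genes). Under that scaling 0 of 6 ATPases and 1 of 14 non-ATPase genes remained.

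Promoters are shown for members that hold the core letters of the antioxidant response element, and a part of these letters in the subunit differences was not tested. RefSeq promoter windows (GRCr8, 250 bases before to 50 after the start of the gene) were found for 31 of 35 subunit genes. The letters searched, on both strands, were TGACNNNGC. They occurred in 7 of 31 subunit windows (22.6%) and in 12.1% of all 33469 windows. The matches were in Psma3, Psmb2, Psmb5, Psmb6, Psmd1, Psmd3 and Psmd9. Psmb5 and Psmb6 are catalytic, Psmb2 is structural, and Psmd1 is a scaffold gene with 2 matches. Psmd9, whose window is not shown, also held 2. Capitals mark the match in each stretch, written 5′ to 3′ on the strand of the gene.
Psmb5 (chr15:32047360-32047479, minus strand): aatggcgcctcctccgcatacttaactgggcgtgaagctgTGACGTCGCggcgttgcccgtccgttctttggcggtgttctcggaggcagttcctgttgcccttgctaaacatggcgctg
Psmb6 (chr10:55737788-55737907, plus strand): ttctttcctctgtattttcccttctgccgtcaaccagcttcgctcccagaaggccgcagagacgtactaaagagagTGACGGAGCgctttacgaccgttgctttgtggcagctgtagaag
Psmb2 (chr5:144254958-144255077, plus strand): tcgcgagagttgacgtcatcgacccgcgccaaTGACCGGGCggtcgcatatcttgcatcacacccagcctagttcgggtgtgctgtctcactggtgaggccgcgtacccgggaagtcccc
Psmd1 (chr9:94157791-94157890, plus strand): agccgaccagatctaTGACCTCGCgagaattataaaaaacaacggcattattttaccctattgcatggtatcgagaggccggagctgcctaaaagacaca

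The match lies 60 to 52 bases before the start in Psmb5, 24 to 16 before it in Psmb6 and 68 to 60 before it in Psmb2. In Psmb2 it shares its first base with a CCAAT box, another element known from subunit promoters, which was found in 16 of 31 subunit windows (51.6%) and 37.5% of all windows. In Psmd1 the first match lies 165 to 157 bases before the start, and another lies 23 to 31 bases after it. The log2 differences of the matched genes in replicate 3 ran from 0.07 (Psmd1) to 1.71 (Psmb6), with a median of 1.03. The 23 detected genes whose window held no match had a median of 1.31, from -0.29 to 2.11. A match is a description of the sequence only.

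The 6 ATPases form the ring that unfolds substrates and opens the gate. All 6 had positive log2 differences, from 0.20 to 0.74 with a median of 0.53, which was 0.13 without fibril replicate 3. Psmc4 (chromosome 1, 84978205 to 84986581) was 1 of the 2 subunits whose groups did not overlap: 39.5, 62.9 and 53.9 FPKM without fibrils and 69.1, 66.7 and 139 FPKM with fibrils. Over all genes, the groups did not overlap with fibrils higher in 4.24%, which for 34 genes is near the 2 found. Its log2 difference of 0.74 (SE 0.45) had an unadjusted limma p of 0.132 and an adjusted p of 0.96, or 0.4997 with the replicate block. Scaled to equal totals without mitochondrial genes, 0 subunits were free of overlap.

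Psmc3, the most abundant ATPase by mean, had 60.3, 84.5 and 73.8 FPKM without fibrils and 74.6, 82.4 and 208 FPKM with fibrils (0.58, SE 0.49). Only fibril replicate 3 stood above the controls. Psmc6 was lowest in level and in difference (0.20, SE 0.42), with 58.6, 37.7 and 27.3 FPKM against 55.3, 37.9 and 43.8 FPKM. In fibril replicate 3 the other 5 ATPases lay between 136 and 208 FPKM, so the ring's highest and lowest transcripts were 4.75-fold apart there, against 1.70-fold to 2.81-fold in the other 5 libraries.

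The non-ATPase genes encode the lid and base of the cap, its ubiquitin receptors, and 3 assembly chaperones (Psmd5, Psmd9 and Psmd10) that are not kept in the mature particle. Of the 14, 12 had positive log2 differences; the range was -0.15 to 0.59 and the median 0.43. Without fibril replicate 3 the median was 0.09, with 8 of 14 positive. Psmd2, a large scaffold subunit of the base, had the widest difference (0.59, SE 0.48), with 25.5, 42.2 and 54.3 FPKM without fibrils and 42.2, 48.3 and 101 FPKM with fibrils, higher in 3 of 3 replicate numbers. Psmd12, a lid subunit (chromosome 10, 95706684 to 95725812), was the other gene with groups that did not overlap, narrowly: 20.5, 24.8 and 25.1 FPKM against 27.1, 25.5 and 52.4 FPKM (0.49, SE 0.41). Psmd8, the most abundant of this class by mean, had 68.3, 82.2 and 69.2 FPKM against 89.7, 74.3 and 167 FPKM (0.50, SE 0.44).

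Differences in replicate 3 spanned the widest range in the non-ATPase class, -0.29 to 1.87; except for Psmd10, those given here were chosen after their values were seen. Psmd10, which encodes the assembly chaperone gankyrin, had 18.0, 10.3 and 7.89 FPKM without fibrils and 13.5, 10.2 and 7.65 FPKM with fibrils, a log2 difference of -0.15 (SE 0.43). It was the only subunit lower with fibrils in 3 of 3 replicate numbers (19.3% of all genes). Psmd11, a lid subunit, had 43.1 FPKM in control and 35.2 FPKM in fibril replicate 3. Psmd1 had 58.0 and 61.1 FPKM there, and the chaperone gene Psmd5 13.1 and 16.6 FPKM. Psmd4, which encodes a ubiquitin receptor, had 47.3 and 175 FPKM, a 3.70-fold ratio and the widest of its class. In replicate 2 these 5 genes lay between 0.848-fold and 1.07-fold of the control.

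Levels within a library are free of scaling between libraries, and those of the beta class showed a second pattern tied to the replicate number. In replicates 2 and 3 the 7 beta transcripts were held in a narrow band, the highest being 1.85-fold and 1.71-fold above the lowest in the controls and 1.90-fold and 1.84-fold in the fibril libraries. The band kept that width in fibril replicate 3, although its median of 245 FPKM was well above the 87.7 FPKM of control replicate 3. In replicate 1 the same 7 transcripts were 7.82-fold (control) and 6.17-fold (fibril) apart. Psmb1, Psmb2, Psmb3 and Psmb7 were high there and Psmb4 and Psmb6 low, in both groups: Psmb6 had 0.330 and 0.484 times, and Psmb3 3.24 and 3.71 times, its replicate 2 level. The other classes shared this pattern in part or not at all. The ATPases were closest together in replicate 1, at 1.84-fold (control) and 1.70-fold (fibril). Among controls, alpha and non-ATPase genes were also widest apart in replicate 1, at 5.55-fold and 13.0-fold. With fibrils they were wider apart in replicate 1 (6.77-fold and 13.4-fold) than in replicate 2 (3.34-fold and 8.23-fold). They were widest apart in fibril replicate 3, at 8.85-fold and 22.9-fold.

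**Figure D3:**
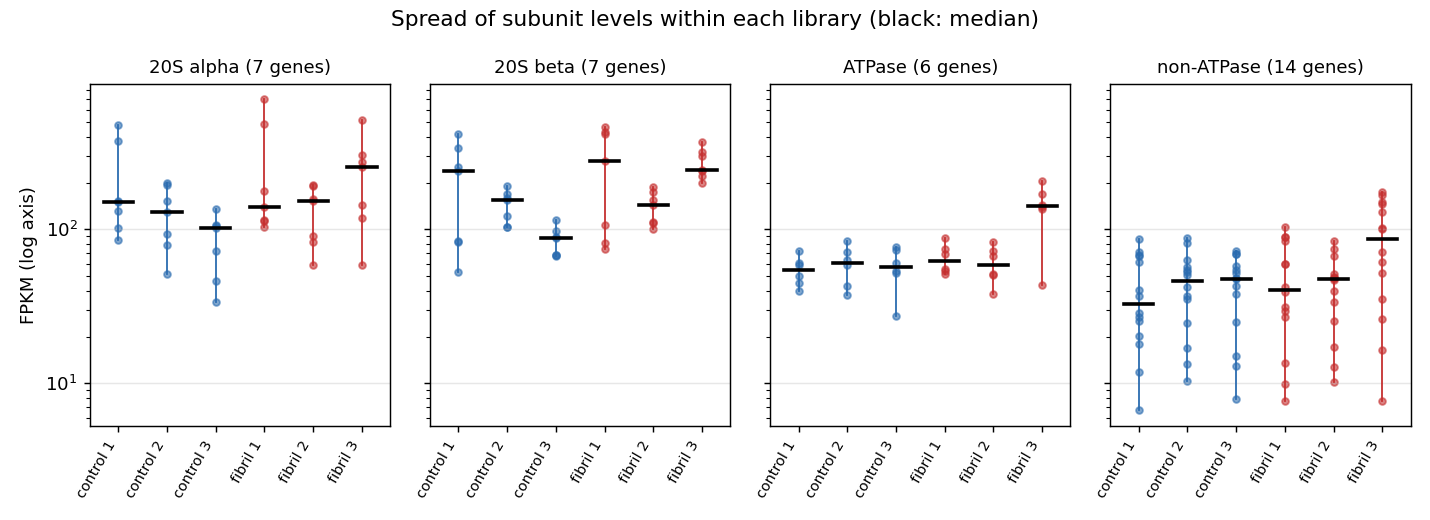
FPKM (log axis) of each subunit in each library, by class; points are genes, vertical lines run from the lowest to the highest gene and black bars are medians. Beta subunits span 1.71-fold to 1.90-fold in the 4 libraries of replicates 2 and 3, and 7.82-fold and 6.17-fold in replicate 1.

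In their profile over all 34 subunits, the replicate 1 libraries stood apart from the other 4. On the log2 scale the control and fibril libraries of the same number correlated at 0.982, 0.994 and 0.943 for replicates 1, 2 and 3, while replicate 1 libraries correlated with those of replicates 2 and 3 at 0.696 to 0.861. Libraries of replicate 2 correlated with those of replicate 3 at 0.922 to 0.935, close to the 0.943 within replicate 3. These are descriptions over genes that share gene length and annotation within 1 table. The change from replicate 2 to replicate 1 was itself alike in both groups (r = 0.94 over 34 genes), with 16 genes higher in both, 11 lower in both and 7 opposite. From replicate 2 to replicate 3 it was not (r = 0.203): 23 of 34 moved in opposite directions. The signs of such changes depend on the scale of each library. From replicate 2 to 3, FPKM outside mitochondrial genes totalled 327106 and 284253 in controls, and 336821 and 493062 with fibrils. The share of all genes that moved in opposite directions was not computed, so these sign counts have no background.

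The balance of core to cap transcripts also differed by replicate number. The median beta transcript was 7.33 times (control) and 6.80 times (fibril) the median non-ATPase transcript in replicate 1, 3.36 and 3.05 times in replicate 2, and 1.84 and 2.84 times in replicate 3. Between treatments the ratio was thus slightly lower with fibrils in replicates 1 and 2 and higher in replicate 3. The median alpha over ATPase ratio was 2.77 and 2.26 in replicate 1, 2.13 and 2.58 in replicate 2, and 1.78 and 1.79 in replicate 3. No direction with fibrils was shared by all 3 numbers for either ratio.

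Scaling between libraries changed the size of the subunit difference. Taken as a share of all FPKM outside mitochondrial genes, the 34 subunits held 8.79, 8.85 and 7.58 per mille in controls and 10.2, 8.57 and 11.4 per mille with fibrils. Scaling to equal totals without mitochondrial genes lowered the median of all genes to -0.30, and that of the subunits to 0.22, which is 0.52 above all genes. Within replicate 3 the subunit median became 0.45 while that of all genes became -0.72. The number of subunits at least 2-fold higher in replicate 3 fell to 4 of 34 (Psma7, Psmb3, Psmb4 and Psmd4), where 5.55% of all genes were that much higher. Under quantile normalization it was 3, and the share of all genes was not computed there, so this count has no background. Without mitochondrial genes, 28 of 34 subunits were above 0 (27.7% of all genes), and 10 of 14 in the non-ATPase class. Besides Psmd10 and Psmd11, those below 0 were Psma3 and Psmc6 (both -0.11), Psmd1 (-0.27) and Psmd5 (-0.28). Under quantile normalization the subunit median was 0.23 both in itself and above that of all genes, and within replicate 3 it was 0.55, or 0.47 above all genes. Without fibril replicate 3, the median difference over the 34 was 0.17 and 27 of 34 were above 0 (44.5% of all genes).

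**Figure D4:**
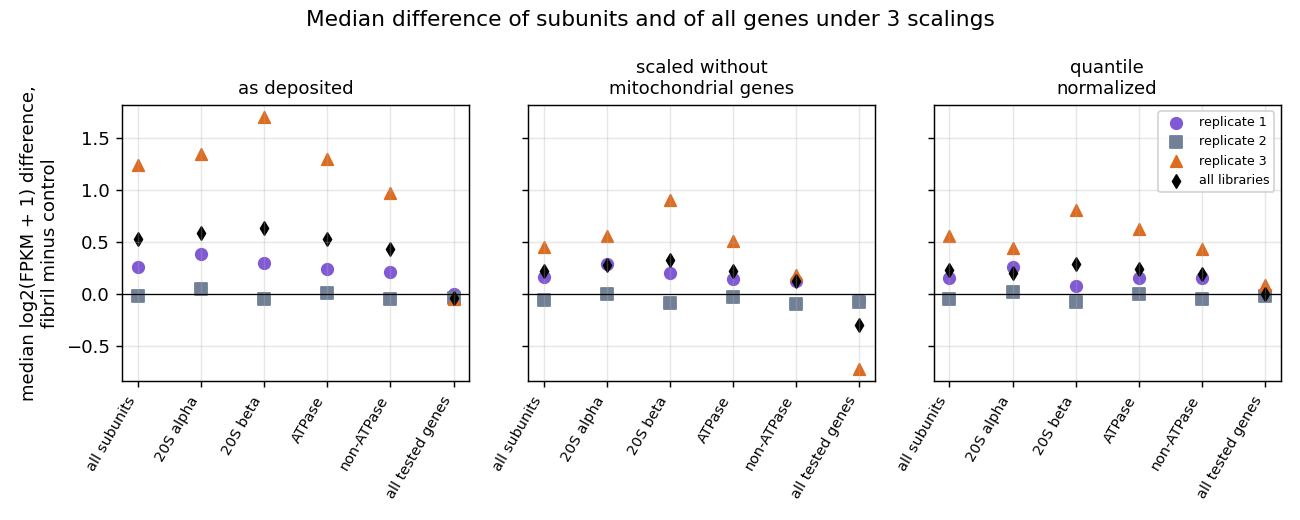
Median difference in log2(FPKM + 1), fibril minus control, of all 34 subunits, of each class and of all 10766 tested genes, with FPKM as deposited, scaled without mitochondrial genes, or quantile normalized; coloured markers are replicate numbers and black diamonds all libraries. As deposited, the replicate 3 median of the beta subunits is 1.70, and it is 0.91 and 0.80 under the other scalings.

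Genes that act with the constitutive subunits gave a mixed picture. Of 44 symbols listed by role, 37 rows were tested, and 26 had positive differences, against 47.0% of all genes. The median was 0.28, and within replicates 1, 2 and 3 it was 0.03, 0.007 and 0.70. By limma 0 passed with or without the block (0 also at an unadjusted p under 0.05). Among the immune catalytic subunits, Psmb9 had 5.42, 5.50 and 4.21 FPKM without fibrils and 14.5, 4.88 and 14.1 FPKM with fibrils (0.89, SE 0.47, limma adjusted p = 0.96). Psmb10 had 17.9, 35.5 and 36.4 FPKM against 10.7, 31.5 and 67.3 FPKM (0.004, SE 0.64). Psmb8 was at most 0.570 FPKM. In all 6 libraries Psmb5, Psmb6 and Psmb7 each lay above all 3 immune subunit genes in FPKM.

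Assembly chaperones of the core ring had positive differences in 4 of 4 tested genes (47.0% of all genes). Their median was -0.06 within replicate 1, -0.0005 within replicate 2 and 1.45 within replicate 3. Psmg1, which helps build the alpha ring, was free of overlap with fibrils higher, as were 4.24% of all genes. It had 22.1, 26.6 and 25.9 FPKM without fibrils and 29.8, 29.0 and 64.5 FPKM with fibrils (0.61, SE 0.43, limma adjusted p = 0.96). Pomp, the chaperone of beta ring assembly, was below the filter, at 0.916, 0 and 0.20 FPKM against 1.60, 0 and 0 FPKM. The housekeeping genes Hprt1 and Rps6 were also listed at 0 in 6 of 6 libraries, so a 0 in this table can be a failed estimate. Activators and the inhibitor Psmf1 had positive differences in 4 of 5. Other genes of the regulatory particle were positive in 3 of 5, a share to be read against the same 47.0%.

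Of the genes that control subunit transcription, 3 of 6 tested had positive differences, with a median of 0.06 (47.0% of all genes were positive). Nfe2l1 had 10.2, 11.6 and 21.9 FPKM without fibrils and 8.05, 12.5 and 8.64 FPKM with fibrils (-0.48, SE 0.42). It was lower with fibrils in replicates 1 and 3 and higher in replicate 2, and the groups overlapped. Its part in the subunit differences was not tested. Nfe2l2, a related factor, was at most 2.07 FPKM. Among 15 rows for ubiquitin and its delivery, 10 were positive (47.0% of all genes). Nploc4, a cofactor of the unfoldase p97, did not overlap in the lower direction (5.3% of all genes): 14.1, 13.5 and 16.5 FPKM against 12.2, 12.7 and 10.6 FPKM (-0.29, SE 0.35).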

How the data were processed

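Strand-specific libraries were prepared from total RNA, per the labels' protocols. The authors deposited 1 table of FPKM per gene and library, per the file headers. The submitters' processing notes list Trimmomatic and FastQC. Not given in the sources used here are aligner, quantifier and genome build. Fragment numbers are unknown. From ratios of genes below 1 FPKM, a single fragment in control replicate 1 counted 4.03 times that of control replicate 2; the factor was 0.824 to 1.95 in the other replicate 2 and 3 libraries and 3.46 or 6.92 in fibril replicate 1 (both equally frequent). Low values of replicate 1 are therefore the least precise.

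Libraries were grouped by title. The scale was log2(FPKM + 1), and the filter (3 libraries reaching 1 FPKM) kept 10766 genes; fold changes on this scale understate low genes. limma 3.58.1 in R 4.3.3 was run on the whole table (mean-variance trend, two-sided, Benjamini-Hochberg over all genes, threshold 0.05), and was tested on simulated data. An exact permutation test of 3 against 3 cannot go below 0.1. Counts of 2-fold changes and within-replicate differences use the same scale. The main fit had no replicate block. After removing group means, same-numbered libraries correlated at 0.747, 0.364 and 0.216, all above the preset 0.1. A fit with the replicate block was therefore run as an alternative. Across numbers, the third control and the second fibril library correlated at 0.5, and the second control and the third fibril library at 0.433. Both were above their matched values, so this measure does not tell numbers 2 and 3 apart, and the labels state no pairing. Members and gene lists were chosen with earlier results of these data known. Named subunits are the catalytic genes, the extremes of mean level and of difference in each class, and those whose groups do not overlap or with an unadjusted p under 0.05. Related genes are named by the last 2 criteria; Psmb8, Psmb9, Psmb10, Pomp, Nfe2l1 and Nfe2l2 are named besides. 1 related gene that meets these criteria is not reported here.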

Additional observations from a re-analysis of the deposited data

How the results depend on the processing

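The fits under other scalings, filters, pseudocounts and sets of libraries left the count of called subunits at 0, as did the replicate block. Over the whole table the count of called genes went from 0 to 12 with the replicate block, to 1 with the block and scaling without mitochondrial genes, and to between 0 and 3 when 1 library was left out (3 without fibril replicate 3). The subunits at least 2-fold higher in replicate 3 went from 24 (17.6% of all genes) to 4 when scaled without mitochondrial genes (5.55%). They went to 3 under quantile normalization, where the share of all genes was not computed. Subunits whose groups do not overlap went from 2 to 1 and 0 under the same scalings (4.74% and 2.5% of all genes), and to between 2 and 9 when 1 library was left out. They were 9 without control replicate 1 (11.4% of all genes) or 2 (7.83%), 4 without control replicate 3 (6.01%), 3 without fibril replicate 1 (10.5%), 8 without fibril replicate 2 (9.76%) and 2 without fibril replicate 3 (5.81%). The median log2 difference of the 34 subunits ran from 0.17 (without fibril replicate 3) to 0.72 (without fibril replicate 2) and was 0.12 for replicates 1 and 2 alone with the block, an alternative chosen after the data were seen. Leaving out 1 library moved the class medians to 0.26 (without control replicate 3) to 0.69 for alpha, 0.35 (without control replicate 3) to 0.90 for beta, 0.13 to 0.75 for ATPase and 0.09 to 0.59 for non-ATPase genes (both lowest without fibril replicate 3), so the order of the classes was not kept. Of the 15 named subunits, 12 kept their sign throughout. Psma3 became -0.11 when scaled without mitochondrial genes, with or without the block, and ran from -0.26 to 0.80 when 1 library was left out. Psmc6 became -0.11 under the same scaling and ran from -0.058 to 0.48. Psmd10 ran from -0.39 to 0.16, positive without control replicate 1 and without fibril replicate 3. The causes of these shifts were not tested. The unknown fragment number and 3 libraries a group limit the precision of every value.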
